A study of Homo sapiens with 10 samples.

Results

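The 28 genes described here make cholesterol from acetyl-CoA, sense the sterol content of the cell, or move sterol within and out of it. They were taken as a named list: 19 enzymes of synthesis in 4 stages, 5 genes of sterol sensing and 4 genes of sterol transport and efflux. All 28 were found in each of 4 deposited tables, which kept between 22113 and 22303 loci on the assembled autosomes and chromosome X. Poly-A RNA had been sequenced from WA09, an established human embryonic stem cell line, at passages 52 to 58, in 10 libraries, 2 for each of 5 cell types. The 4 derivatives are called DE (definitive endoderm), MESO (splanchnic mesoderm), NPC (neural progenitor cells) and NCSC (pre-neural crest cells), and each was compared with the undifferentiated stem cells (hESC).

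DE had 4 days of activin A (100 ng/mL) with FGF (8 ng/mL), and Wnt-3a (25 ng/mL) during the first day alone. MESO had 4 days of BMP-4 (100 ng/mL) and Wnt-3a (25 ng/mL) on top of the factors given to hESC. NPC had 6 days of heregulin (10 ng/mL) and IGF-I (200 ng/mL) together with SB431542, which blocks activin receptors, and LDN (500 nM), which blocks BMP receptors. NCSC had 6 days of heregulin (10 ng/mL), IGF-I (200 ng/mL) and FGF (8 ng/mL) together with SB431542 and the GSK3 inhibitor BIO. hESC had 4 days of FGF (8 ng/mL), activin A and heregulin (each 10 ng/mL) and IGF-I (200 ng/mL). The seeding density was 90000 cells per cm2 for NPC and NCSC and 50000 cells per cm2 for the rest. All groups derive from 1 line, and the labels do not say whether the libraries of a group came from separate cultures.

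Cholesterol is built in the cytosol and endoplasmic reticulum: acetyl-CoA is turned into mevalonate, mevalonate into isoprenoid diphosphates, these into squalene, and squalene into lanosterol, which a chain of enzymes trims to cholesterol. Supply is set by feedback. When sterol in the endoplasmic reticulum is low, SCAP escorts the membrane-bound SREBP factors (genes SREBF1 and SREBF2) to the Golgi, where they are cut and freed to activate genes of synthesis; when sterol is high, the INSIG proteins hold SCAP back. Surplus sterol gives rise to oxysterols, which activate the LXR receptors and with them the exporters ABCA1 and ABCG1. Embryonic cells depend on this pathway for membrane growth and for Hedgehog signalling, whose ligands carry cholesterol.

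Each table held 1 value per gene and cell type in FPKM (fragments per kilobase of transcript, scaled to library size), with the authors' statistic and q-value for derivative against hESC. The replicates had been combined before deposit, so no spread between libraries could be given, and the depth is unknown. "Rose" and "fell" below mean a q-value under 0.05 in the authors' deposited table. A change is the derivative's log2(FPKM + 1) less that of hESC, which understates the change of genes near 0, and is centred on the median of all loci with at least 1 FPKM. That median was 0.05 in DE, 0.07 in MESO, -0.27 in NPC and -0.23 in NCSC. In bulk RNA, fewer cells of a type and less RNA per cell cannot be told apart. Markers of the labelled cell type rose for 5 of 6 genes in DE, 6 of 6 in MESO, 5 of 6 in NPC and 4 of 6 in NCSC, where TFAP2A (0.0463 FPKM) and ZIC1 (0.116 FPKM), markers of the neural plate border, were close to 0. The NCSC markers also rose for 5 of 6 genes in MESO and 4 of 6 in NPC, so they do not set NCSC apart. Their summed level was 201 FPKM in MESO and 48.0 FPKM in NCSC. The other lists overlapped less. DE markers rose for 2 of 6 genes in MESO and 1 of 6 (CXCR4) in each of NPC and NCSC. NPC markers rose for 1 of 6 in DE (OTX2) and 1 of 6 in NCSC (SOX1). SOX1 stood at 9.56 FPKM in NCSC and 5.24 FPKM in NPC. MESO markers rose for 1 of 6 in DE (GATA4).

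In DE, no sterol gene rose or fell, but 17 of the 19 enzymes lay above the table's centre. Of all tested loci, 0.406% rose and 0.0203% fell in DE. The median centred change of the 28 genes was 0.41, beside -0.01 over all tested loci, and the summed FPKM of the enzymes was 3155 in DE, against 2312 in hESC. The gene with the highest centred change, 1.87, was the exporter ABCA1, whose q of 0.168 was the lowest of the 28 in the authors' deposited table. Against the hESC level of the other 3 tables, where ABCA1 in hESC was higher, its centred change in DE was 0.59, below that of MVD (1.41) and ACAT2 (1.22). ABCA1 was also the 1 gene higher, with 0 lower, at an unadjusted p-value under 0.05 in the authors' deposited table. The share of all loci at that threshold was not computed, so this count is not read as a result. Of 6 hepatic markers, which checked for cells further along the endodermal path, none rose, and their summed level was 109 FPKM in DE and 2.39 in hESC. APOA2 at 95.2 FPKM made up most of it, while ALB (0.128 FPKM), AFP (0.133 FPKM) and TTR (listed at 0) were at or near 0 in DE; their part in the result was not tested.

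In MESO, 4 genes rose, the early enzymes MVK and MVD, the late enzyme SC5D and the lysosomal exporter NPC1, and ABCG1 fell. That is 14.3% of the 28 higher, beside 9.05% of all tested loci, and 3.57% lower, beside 5.38%. All enzymes except PMVK, 18 of 19, lay above the centre. Their summed FPKM was 2742 in MESO, against 1601 in hESC, and the median change of the 28 genes was 0.66, beside -0.01 over all tested loci. Trophoblast and amnion markers moved in the same table: 6 of 6 rose, and their sum was 591 FPKM in MESO, against 19.9 FPKM in hESC. None of the 6 was below 1 FPKM in MESO, and their part in the result was not tested. The 4 calls of a rise had q between 0.00747 and 0.0373 in the authors' deposited table, and none remained when p-values were recomputed from the deposited statistic with a normal distribution.

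NPC was the only derivative in which any enzyme of synthesis fell, and 24.8% of all tested loci fell there. The 9 that fell were HMGCS1, MVD, FDPS, FDFT1, SQLE, MSMO1, NSDHL, SC5D and DHCR7, with at least 1 in each of the 4 enzyme stages, and no enzyme rose. INSIG2, ABCA1 and ABCG1 rose; with p-values recomputed from the statistic, only ABCA1 of these 3 passed, and all 3 did after centring. The 9 that fell are 32.1% of the 28 genes, beside 24.8% of all tested loci, and the 3 that rose are 10.7%, beside 12.0%, so the shares stood close to those of the table. The enzymes' summed FPKM was 1026 in NPC, against 1845 in hESC; their median centred change was -0.52, and that of all 28 genes -0.23, beside 0.02 over all tested loci. The median of all loci was lower than in hESC in this table: with p-values recomputed from the statistic, 7.00% of tested loci were higher and 15.4% lower as deposited, and 9.93% and 10.5% after centring. Of the 9 enzymes, 4 remained (MVD, SQLE, NSDHL and DHCR7) with recomputed p-values and 1, MVD, after centring as well.

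In NCSC, 7 genes rose: the enzymes SQLE, MSMO1 and DHCR7, the sensors INSIG1 and INSIG2, the sterol carrier STARD4 and the exporter ABCA1. None fell by the authors' q-value, and HMGCS1 was not tested there. At an unadjusted p-value under 0.05 in the authors' deposited table, 12 genes were higher and 1 (ABCG1) was lower. The share of all loci at that unadjusted threshold was not computed. The 7 are 25.9% of the 27 tested, beside 10.2% of all tested loci, while 19.8% of all tested loci fell. Enzymes lay above the centre in 17 of 19 cases, and above hESC before centring in 16, with a summed FPKM of 2758 in NCSC, against 1706 in hESC, and the median change of the 28 genes was 0.75, beside 0.01 over all tested loci. With recomputed p-values 4 of the 7 remained (MSMO1, INSIG1, INSIG2 and STARD4), and 6, all but DHCR7, after centring. The recomputed table had 5.40% higher and 10.7% lower as deposited, and 7.39% and 7.40% after centring.

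**Figure D1:**
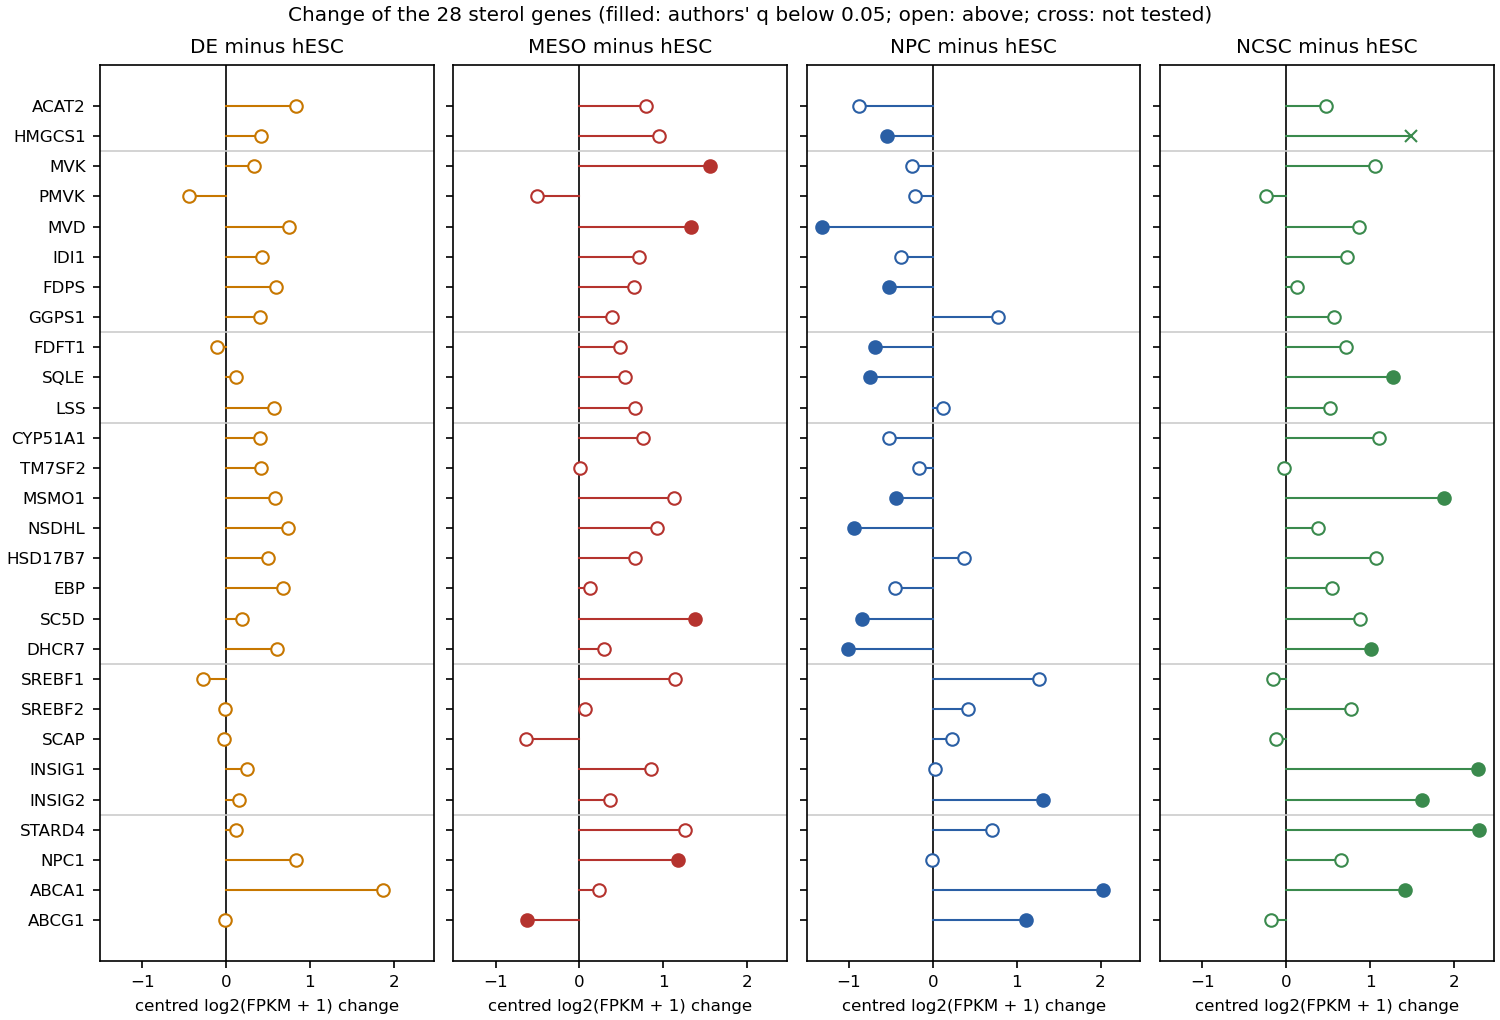
Centred log2(FPKM + 1) change of the 28 genes in pathway order, top to bottom, in DE, MESO, NPC and NCSC, each minus hESC of the same table; there is 1 value per gene and table and no error bar. Filled points had an authors' q below 0.05. Enzymes in the upper 4 blocks lie mostly right of 0 in DE, MESO and NCSC and mostly left of 0 in NPC, where 16 of 19 are below the centre.

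Across the tables, 13 of the 19 enzymes lay above the centre in DE, MESO and NCSC and below it in NPC. The 4 comparisons all use hESC, for which 2 libraries are listed, so they are not taken as independent. Of the 28 genes, 16 rose or fell in at least 1 derivative and 12 in none. The counts across derivatives given here were not made over all loci, so they are description only. By derivative, 9.05% of all tested loci rose and 5.38% fell in MESO. The shares were 12.0% and 24.8% in NPC, and 10.2% and 19.8% in NCSC. MVD, SQLE, MSMO1, SC5D, DHCR7 and ABCG1 passed in opposite directions in a pair of derivatives; INSIG2 and ABCA1 rose in both NPC and NCSC.

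Promoters were read from RefSeq (GRCh38.p14) as 250 bases before and 50 after each annotated start, and such a window was used for 24 of the 28 genes. None was used for ACAT2, FDFT1, SQLE and ABCG1. Windows of the 28 genes on chromosome 8, which holds FDFT1 and SQLE, were left out. The set of all genes below had no such exclusion. The search covered the letters CCAAT (bound by NF-Y, a partner of the SREBP factors), GGGCGG (bound by Sp1) and TCACNCCAC (the sterol element bound by SREBP), on both strands. CCAAT stood in 17 of the 24 genes, 70.8%, beside 39.7% of all 27305 genes with a window. GGGCGG stood in 23 of 24, 95.8%, beside 48.3%. The 27305 genes were not chosen by expression, and a comparison with expressed genes alone was not made. The sterol element in this strict spelling stood in 1, SREBF2, or 4.17%, beside 1.39%; no match says only that these letters are not in the window. In a single window MVK and NSDHL had the most CCAAT matches, 5 each, and IDI1 had as many over its 3 windows, while PMVK, CYP51A1, SREBF1, SCAP, INSIG2, NPC1 and ABCA1 had none.

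**Figure D2:**
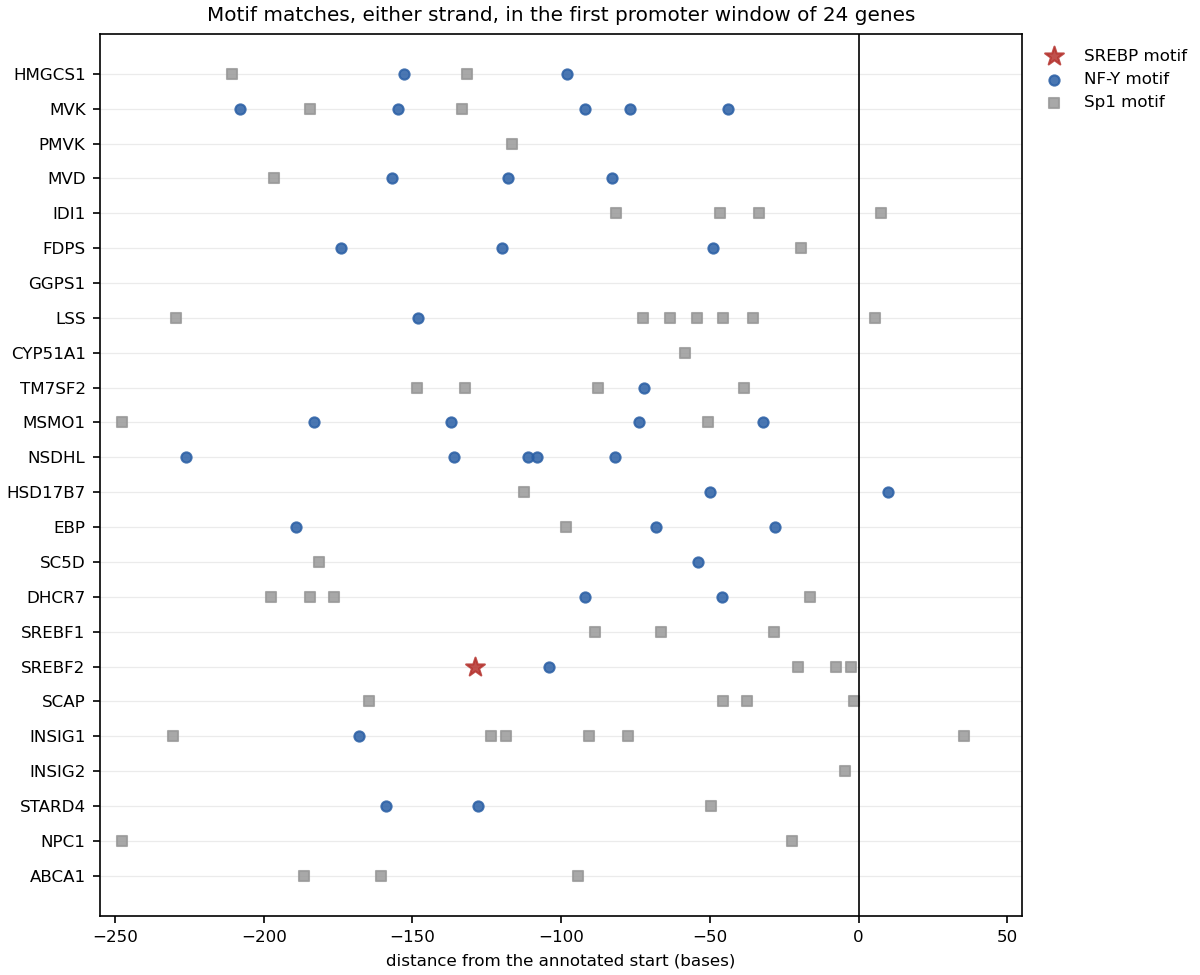
Motif matches on either strand in the promoter window of 24 sterol genes (where a gene has several windows, the first is drawn), by distance in bases from the annotated start. CCAAT matches (circles) lie upstream of the start in most enzyme genes, and the only SREBP match (star) is that of SREBF2.

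Upstream stretches with matches, from 1 window of each gene, are shown for 4 enzymes that passed in opposite directions in a pair of derivatives (MVD, MSMO1, SC5D and DHCR7), for INSIG1 and STARD4, which had the highest centred changes in NCSC, for SREBF2, which holds the sterol element, and for ABCA1, which holds no CCAAT. Each reads 5′ to 3′ on the strand of the gene. Capitals mark matches to the motifs on either strand, so that a CCAAT box on the other strand reads ATTGG. In GRCh38.p14 the MVD stretch is chr16:88663162-88663300 (minus strand), that of MSMO1 chr4:165327419-165327649 (plus), of SC5D chr11:121292577-121292729 (plus), of DHCR7 chr11:71448397-71448603 (minus), of INSIG1 chr7:155297635-155297813 (plus), of STARD4 chr5:111512572-111512706 (minus), of SREBF2 chr22:41832962-41833104 (plus) and of ABCA1 chr9:104928237-104928354 (minus). A pair of GGGCGG matches overlaps in INSIG1. The stretches end before the start, so 1 GGGCGG match of INSIG1 beyond it and 1 of SREBF2 that crosses it are not marked, and the other window of SC5D is not shown.
MVD: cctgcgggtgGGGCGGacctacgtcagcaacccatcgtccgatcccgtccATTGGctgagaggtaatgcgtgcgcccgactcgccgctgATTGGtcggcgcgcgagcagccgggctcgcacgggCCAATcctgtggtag
MSMO1: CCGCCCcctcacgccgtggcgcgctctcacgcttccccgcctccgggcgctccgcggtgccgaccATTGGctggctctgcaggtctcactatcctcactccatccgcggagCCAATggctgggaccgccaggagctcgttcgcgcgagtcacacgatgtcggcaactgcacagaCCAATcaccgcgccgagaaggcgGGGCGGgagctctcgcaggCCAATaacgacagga
SC5D: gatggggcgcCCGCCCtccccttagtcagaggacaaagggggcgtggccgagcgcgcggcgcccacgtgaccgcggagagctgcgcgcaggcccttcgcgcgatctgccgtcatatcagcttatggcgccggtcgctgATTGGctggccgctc
DHCR7: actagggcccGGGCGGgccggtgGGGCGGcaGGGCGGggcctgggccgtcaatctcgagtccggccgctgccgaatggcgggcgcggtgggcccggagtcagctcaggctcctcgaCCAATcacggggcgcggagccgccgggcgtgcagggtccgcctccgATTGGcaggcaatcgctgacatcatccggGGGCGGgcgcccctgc
INSIG1: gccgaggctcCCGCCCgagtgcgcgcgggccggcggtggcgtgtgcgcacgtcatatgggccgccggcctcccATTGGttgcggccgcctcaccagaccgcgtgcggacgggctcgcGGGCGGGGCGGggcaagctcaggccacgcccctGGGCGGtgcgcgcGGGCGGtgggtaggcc
STARD4: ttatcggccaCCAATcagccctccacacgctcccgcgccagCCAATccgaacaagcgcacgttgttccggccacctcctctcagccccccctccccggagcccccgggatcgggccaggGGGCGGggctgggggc
SREBF2: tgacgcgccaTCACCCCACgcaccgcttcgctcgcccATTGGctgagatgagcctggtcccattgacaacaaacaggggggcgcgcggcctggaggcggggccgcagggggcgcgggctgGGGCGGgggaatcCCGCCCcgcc
ABCA1: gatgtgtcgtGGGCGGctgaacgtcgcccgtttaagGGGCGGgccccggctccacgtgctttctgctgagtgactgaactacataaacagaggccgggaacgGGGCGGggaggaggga
STARD4 holds 2 CCAAT boxes on the gene's own strand, MVD holds 3 and MSMO1 4 over both strands, and ABCA1 shows GGGCGG boxes alone.

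**Figure D3:**
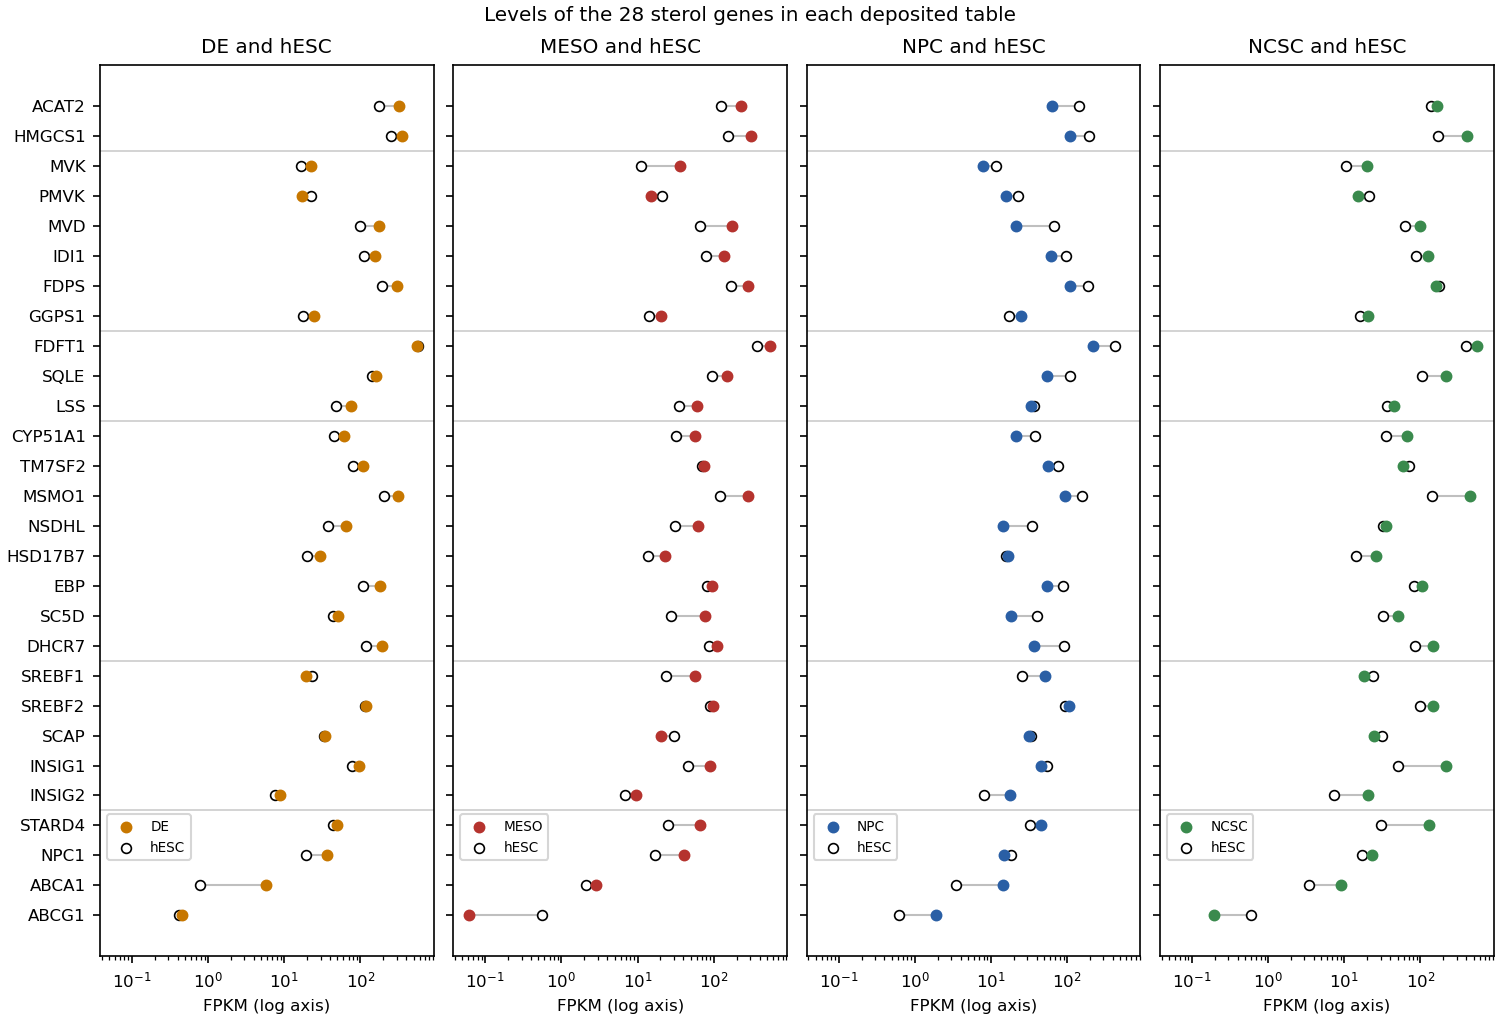
Levels in FPKM, on a log axis, of the 28 genes in pathway order in DE, MESO, NPC and NCSC (filled), each joined to hESC of the same table (open); each point is the authors' value over the combined libraries. FDFT1, HMGCS1 and MSMO1 are among the most abundant throughout, and ABCG1 is at or near the left edge.

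The pathway opens with ACAT2, which joins acetyl-CoA units, and HMGCS1, which adds the next to give HMG-CoA. HMGCS1 stood at 347, 312, 108 and 409 FPKM in DE, MESO, NPC and NCSC, against 251, 152, 191 and 171 FPKM in hESC of the same tables. Only the NPC value passed, a fall to 0.566 of hESC (q = 0.0181 in the authors' deposited table). In the NCSC table HMGCS1 was split over 4 rows, none of them tested, so its 2.40-fold higher level there carries no call. ACAT2 stood at 323, 231, 64.2 and 163 FPKM in DE, MESO, NPC and NCSC, against 174, 126, 143 and 137 FPKM in hESC, and passed in none; its locus overlaps TCP1. For both genes NPC was the derivative below hESC.

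Mevalonate is activated by MVK and PMVK, and MVD then removes its carboxyl group to give isopentenyl diphosphate. MVK, the kinase of the first step, stood at 22.2, 35.9, 7.86 and 19.8 FPKM in DE, MESO, NPC and NCSC, against 16.8, 10.9, 11.7 and 10.7 FPKM in hESC. It rose 3.28-fold in MESO (with a q of 0.00747 in the authors' deposited table), and the 1.85-fold difference in NCSC just missed the threshold (q = 0.0501 in the authors' deposited table). PMVK, the next kinase, was the only one of the 19 enzymes listed below hESC in all 4 derivatives. Its level was 17.1, 15.1, 15.8 and 15.0 FPKM in DE, MESO, NPC and NCSC, against 22.8, 20.7, 22.5 and 21.1 FPKM in hESC, a ratio of at most 0.749 in all 4 derivatives that passed in none.

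MVD had the widest range of centred changes of the 6 genes of this stage, -1.32 in NPC to 1.33 in MESO. It stood at 175, 175, 21.3 and 98.1 FPKM in DE, MESO, NPC and NCSC, against 100.3, 65.3, 66.3 and 62.5 FPKM in hESC. It fell in NPC to 0.321 of hESC (q = 0.000323, the lowest value the authors' deposited table for NPC holds) and rose 2.68-fold in MESO (with a q of 0.0373 in the authors' deposited table). MVD lies on chromosome 16, at 88718235 to 88729563 in the hg19 coordinates of the NPC table. Its promoter, shown above, holds 3 CCAAT matches.

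FDPS makes farnesyl diphosphate, the branch point between sterols and other isoprenoids, and GGPS1 makes geranylgeranyl diphosphate for protein prenylation. FDPS stood at 299, 281, 108 and 162 FPKM in DE, MESO, NPC and NCSC, against 191, 169, 188 and 174 FPKM in hESC. It fell to 0.576 of hESC in NPC (q = 0.0412 in the authors' deposited table), though from a locus merged with RUSC1 in the MESO, NPC and NCSC tables, so its share of the value is uncertain. GGPS1, off the sterol branch, stood at 24.6, 20.0, 24.9 and 20.6 FPKM in DE, MESO, NPC and NCSC, against 17.7, 14.3, 17.3 and 16.0 FPKM in hESC. It was higher than hESC in all 4 derivatives, by 1.29-fold to 1.44-fold, and passed in none. IDI1, the isomerase between MVD and FDPS, passed in none, with ratios of 0.632 in NPC and 1.39 to 1.73 in the other derivatives. Its locus overlaps GTPBP4.

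FDFT1, squalene synthase, commits isoprenoid to sterol and was the most abundant of the 28 genes in every column. It stood at 556, 545, 217 and 554 FPKM in DE, MESO, NPC and NCSC, against 579, 369, 423 and 394 FPKM in hESC. The fall in NPC, to 0.513 of hESC, passed (q = 0.00911 in the authors' deposited table). The FDFT1 locus overlaps CTSB in each table. SQLE, squalene epoxidase, a control point of the pathway, stood at 161, 147, 53.8 and 213 FPKM in DE, MESO, NPC and NCSC, against 143, 95.3, 109.9 and 103 FPKM in hESC. It fell to 0.489 of hESC in NPC (q = 0.00133 in the authors' deposited table) and rose 2.07-fold in NCSC (q = 0.00312 in the authors' deposited table). LSS, which closes the sterol rings, passed in none; it was 0.901 of hESC in NPC and 1.24-fold to 1.69-fold higher in the other derivatives.

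The remaining 8 enzymes strip methyl groups from lanosterol and shift its unsaturated bonds. MSMO1, the methylsterol oxidase, stood at 315, 284, 94.5 and 445 FPKM in DE, MESO, NPC and NCSC, against 203, 122, 155 and 140.4 FPKM in hESC. It rose 3.17-fold in NCSC (q = 0.000455 in the authors' deposited table), the largest rise of any of the 19 enzymes there, and fell to 0.611 of hESC in NPC (q = 0.0404 in the authors' deposited table). NSDHL, a dehydrogenase acting with it, stood at 65.2, 62.1, 14.3 and 35.8 FPKM in DE, MESO, NPC and NCSC, against 37.4, 30.6, 34.3 and 32.0 FPKM in hESC. It fell to 0.417 of hESC in NPC (q = 0.000860 in the authors' deposited table). Unlike MSMO1, it was close to hESC in NCSC, at a ratio of 1.12.

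SC5D, the desaturase near the end of the chain, stood at 51.4, 76.9, 18.2 and 50.7 FPKM in DE, MESO, NPC and NCSC, against 43.6, 27.5, 40.7 and 31.9 FPKM in hESC. It rose 2.80-fold in MESO (with a q of 0.0146 in the authors' deposited table) and fell to 0.447 of hESC in NPC (q = 0.0190 in the authors' deposited table). DHCR7, the reductase of the final step to cholesterol, stood at 190.2, 111, 36.7 and 147 FPKM in DE, MESO, NPC and NCSC, against 119.8, 85.4, 90.7 and 85.1 FPKM in hESC. It fell to 0.405 of hESC in NPC (q = 0.000323 in the authors' deposited table) and rose 1.73-fold in NCSC (q = 0.0269 in the authors' deposited table). CYP51A1, TM7SF2, HSD17B7 and EBP passed in none. CYP51A1, the lanosterol demethylase, and HSD17B7, a ketosteroid reductase, had centred changes of 1.10 and 1.07 in NCSC. The CYP51A1 locus overlaps AKAP9 in the NPC and NCSC tables. TM7SF2 and EBP came from loci merged with VPS51 and PORCN in all 4 tables, so their levels are uncertain.

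In NPC, all 5 genes of sterol sensing lay above the centre of the table (3 of 5 were above hESC before centring), and 1 of them, INSIG2, rose. SREBF2, the gene of the main SREBP factor of cholesterol synthesis, stood at 118, 99.0, 104 and 144 FPKM in DE, MESO, NPC and NCSC, against 115, 89.5, 94.0 and 98.5 FPKM in hESC. It passed in none, and its ratio to hESC in NPC was 1.11. In NPC 9 enzymes fell, where 24.8% of all tested loci fell. With p-values recomputed after centring, 1 of the 9 remained. SREBF1, whose product acts more on fatty acid genes, was 2.37-fold higher in MESO and 2.02-fold higher in NPC without passing. The NPC ratio of SREBF1 came with a statistic of 0.0479 in the authors' deposited table, small for such a ratio, and its locus overlaps RAI1, so this level is uncertain. SCAP, the escort, ranged from 0.669 of hESC in MESO to 1.02-fold in DE and passed in none. Its locus overlaps PTPN23 in the MESO, NPC and NCSC tables.

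INSIG1, an anchor of SCAP and itself an SREBP target, stood at 95.9, 89.3, 46.0 and 216 FPKM in DE, MESO, NPC and NCSC, against 77.7, 46.3, 54.7 and 51.0 FPKM in hESC. It rose 4.25-fold in NCSC (q = 0.000455 in the authors' deposited table) and passed in no other derivative. INSIG1 lies on chromosome 7, at 155089485 to 155102183 in the hg19 coordinates of the NCSC table. INSIG2, its paralog, is the less abundant of the pair, at 8.79, 9.66, 17.9 and 20.7 FPKM in DE, MESO, NPC and NCSC, against 7.52, 6.88, 8.20 and 7.32 FPKM in hESC. It rose 2.18-fold in NPC (q = 0.00475 in the authors' deposited table) and 2.84-fold in NCSC (q = 0.00121 in the authors' deposited table). The 2 anchors thus differed in NPC, where INSIG1 was 0.840 of hESC without passing; no test of the difference between them was made.

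STARD4, which carries sterol between membranes and is known as an SREBP target, stood at 49.9, 65.4, 44.8 and 129 FPKM in DE, MESO, NPC and NCSC, against 44.4, 25.4, 32.9 and 30.1 FPKM in hESC. Its 4.29-fold rise in NCSC (q = 0.0180 in the authors' deposited table) was as large as that of INSIG1, with centred changes of 2.29 for both. The 2.57-fold difference in MESO missed the threshold (q = 0.33 in the authors' deposited table). The STARD4 locus overlaps NREP and an antisense gene, and the strand of counting is not given in the sources used here. NPC1, which passes cholesterol out of lysosomes, stood at 36.5, 41.2, 14.9 and 23.4 FPKM in DE, MESO, NPC and NCSC, against 19.3, 16.8, 18.3 and 17.2 FPKM in hESC. It rose 2.46-fold in MESO (with a q of 0.0272 in the authors' deposited table). The NPC1 locus overlaps C18orf8.

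Both exporters were low in hESC and rose in NPC. ABCA1, which loads cholesterol onto apolipoprotein A-I, stood at 5.75, 2.87, 14.2 and 9.14 FPKM in DE, MESO, NPC and NCSC, against 0.783, 2.12, 3.49 and 3.46 FPKM in hESC. It rose 4.07-fold in NPC (q = 0.000323 in the authors' deposited table) and 2.64-fold in NCSC (q = 0.00400 in the authors' deposited table), while the 7.35-fold ratio in DE did not pass. That ratio rests on the hESC level of the DE table: the centred change in DE was 1.87 with it and 0.59 with the hESC level of the other 3 tables. With recomputed p-values ABCA1 passed in DE and NPC but not in NCSC, and after centring it passed in NPC and NCSC but not in DE. ABCG1, which exports to lipoprotein particles, stood at 0.459, 0.0605, 1.90 and 0.194 FPKM in DE, MESO, NPC and NCSC, against 0.420, 0.558, 0.628 and 0.591 FPKM in hESC. It rose in NPC (q = 0.0143 in the authors' deposited table) and fell in MESO (with a q of 0.0179 in the authors' deposited table), where both levels were below 1 FPKM.

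**Figure D4:**
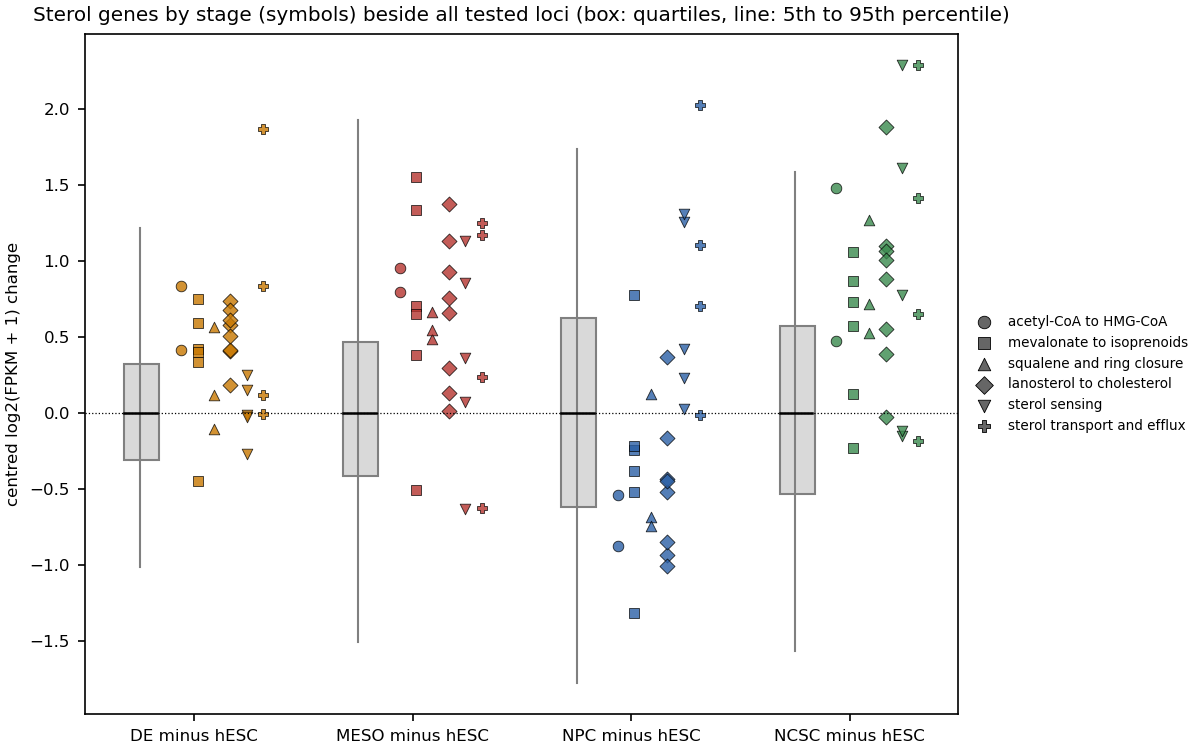
Centred log2(FPKM + 1) change of each of the 28 genes by stage (symbols), in DE, MESO, NPC and NCSC minus hESC, beside all tested loci with at least 1 FPKM (box, quartiles; line, 5th to 95th percentile). In NPC the enzyme stages reach down to -1.32 and sterol sensing and transport reach up to 2.03; in NCSC sensing and transport reach 2.29.

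The stages can be read beside each other through their summed FPKM. These sums are not centred, and the median log2 change of all loci was -0.27 in NPC and -0.23 in NCSC. They include the merged loci of FDPS, TM7SF2 and EBP. In NPC, STARD4, whose locus overlaps NREP, gave 44.8 of the 75.8 FPKM of transport and efflux. In NPC the ratio of sums to hESC was 0.515 for acetyl-CoA to HMG-CoA, 0.594 for mevalonate to isoprenoids, 0.534 for squalene and ring closure and 0.578 for lanosterol to cholesterol, against 1.17 for sterol sensing and 1.37 for transport and efflux. In NCSC the corresponding ratios were 1.86, 1.18, 1.52 and 1.90 for the enzymes and 3.16 for transport and efflux, and the sensing genes summed to 424 FPKM in NCSC, against 212 FPKM in hESC. In MESO the squalene stage summed to 751 FPKM, against 499.7 FPKM in hESC, and the other enzyme stages had ratios of 1.95, 1.85 and 1.69 in pathway order. In DE the 4 enzyme stages had ratios of 1.57, 1.51, 1.03 and 1.53. Sums weigh abundant genes most: FDFT1 alone gave 556 of the 791 FPKM of its stage in DE, against 579 of 771 FPKM in hESC. The 4 enzyme stages lay between 0.515 and 0.594 in NPC, while in NCSC the mevalonate stage, with FDPS at 0.930 of hESC, was the lowest.

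Neighbouring pathways were read from lists of 14, 14, 10 and 17 genes. Of 14 genes of fatty acid synthesis and desaturation, none passed in DE, 3 rose in MESO, 1 rose and 6 fell in NPC, and 2 rose and 1 fell in NCSC. Over all tested loci, 9.05% rose in MESO, 12.0% rose and 24.8% fell in NPC, and 10.2% rose and 19.8% fell in NCSC, against which this list and the next 3 are to be read. SCD5, a desaturase, rose to 3.17 FPKM in MESO, 26.7 in NPC and 4.27 in NCSC, against 0.368, 0.414 and 0.387 FPKM in hESC. FADS2, a desaturase of polyunsaturated fatty acids, rose to 347 FPKM in MESO and 306 in NCSC, against 136 and 135 FPKM in hESC. ELOVL1, an elongase, rose in MESO as well, with 58.2 FPKM, against 23.4 FPKM in hESC. In NPC, ACLY, which makes cytosolic acetyl-CoA, fell to 80.7 FPKM, against 202 FPKM in hESC, and FADS3 fell to 7.54 FPKM, against 23.8 FPKM in hESC; FADS3 also fell in NCSC, to 10.5 FPKM, against 22.1 FPKM in hESC. The list's median centred change was 0.27 in DE, 0.41 in MESO, -0.47 in NPC and 0.37 in NCSC.

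Genes that use isoprenoids for prenylation, dolichol or ubiquinone did not rise in any derivative: none of 14 passed in DE or MESO, 6 fell in NPC (24.8% of all tested loci fell there) and 3 fell in NCSC (19.8% of all tested loci), with median centred changes of -0.17, -0.19, -0.44 and -0.31. RABGGTB, a subunit of the Rab prenyltransferase, fell to 24.9 FPKM in NPC, against 97.2 FPKM in hESC. ZMPSTE24, a protease of prenylated proteins, fell to 9.18 FPKM in NPC and 6.90 in NCSC, against 31.8 and 29.5 FPKM in hESC. NUS1, of dolichol synthesis, fell to 7.52 FPKM in NPC and 10.3 in NCSC, against 18.2 and 17.8 FPKM in hESC. DHDDS, its partner, fell to 9.39 FPKM in NPC, against 21.4 FPKM in hESC; its fall in NCSC, to 21.4 FPKM, against 43.0 FPKM in hESC, is of a locus merged with HMGN2, so its share is uncertain. Of 10 genes of SREBP processing and turnover, none passed in DE, MESO or NPC; in NCSC TMEM97, a sterol-regulated membrane protein, rose to 92.8 FPKM, against 52.8 FPKM in hESC, and ERLIN2, of the machinery that degrades membrane proteins, fell to 12.95 FPKM, against 21.8 FPKM in hESC.

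Of 17 genes of sterol uptake, storage and oxysterols, none passed in DE, 1 rose in MESO, 1 rose and 9 fell in NPC, and 1 rose and 4 fell in NCSC, where 19.8% of all tested loci fell. MYLIP, a ligase that marks lipoprotein receptors for degradation and is known as an LXR target, fell to 2.96 FPKM in NPC and 2.36 in NCSC, against 15.5 and 14.4 FPKM in hESC. ABCA1, also known as an LXR target, rose in both of these derivatives, and ABCG1 rose in NPC but not in NCSC. The part of LXR in these changes was not tested. NR1H2, the gene of an LXR receptor, fell to 13.1 FPKM in NPC and 8.77 in NCSC, against 23.5 and 22.1 FPKM in hESC. SCARB1, a lipoprotein receptor, fell to 4.35 FPKM in NPC, against 21.0 FPKM in hESC. CYP27A1, which makes an oxysterol, rose to 7.67 FPKM in MESO, against 2.52 FPKM in hESC, and fell to 0.233 FPKM in NPC, against 2.46 FPKM in hESC. ABCA2, a transporter of the endolysosomal system, rose to 10.02 FPKM in NPC and 11.2 in NCSC, against 5.13 and 4.84 FPKM in hESC.

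Each of the 4 tables has an hESC column, and 2 hESC libraries are listed, yet the hESC level of the sterol genes was not the same in each. Which libraries each column holds is not stated. Of the 28 genes, 24 had their highest hESC level in the DE table, and the median ratio of the hESC level in the DE table to that in the MESO table was 1.38, beside 1.03 over 6897 genes with at least 10 FPKM. For the NPC and NCSC tables the same ratios were 1.13 and 1.06, beside 1.14 and 1.07 over all such genes. STARD4 stood at 44.4 FPKM in hESC of the DE table and 25.4 FPKM in that of the MESO table. INSIG1 stood at 77.7 and 46.3 FPKM in the same columns. ABCA1 went the other way, at 0.783 FPKM in hESC of the DE table and 2.12 to 3.49 FPKM in the other 3. The changes in DE depend on this column: set against the median hESC level of the other 3 tables, the median centred change of the 28 genes in DE was 0.77 in place of 0.41.

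**Figure D5:**
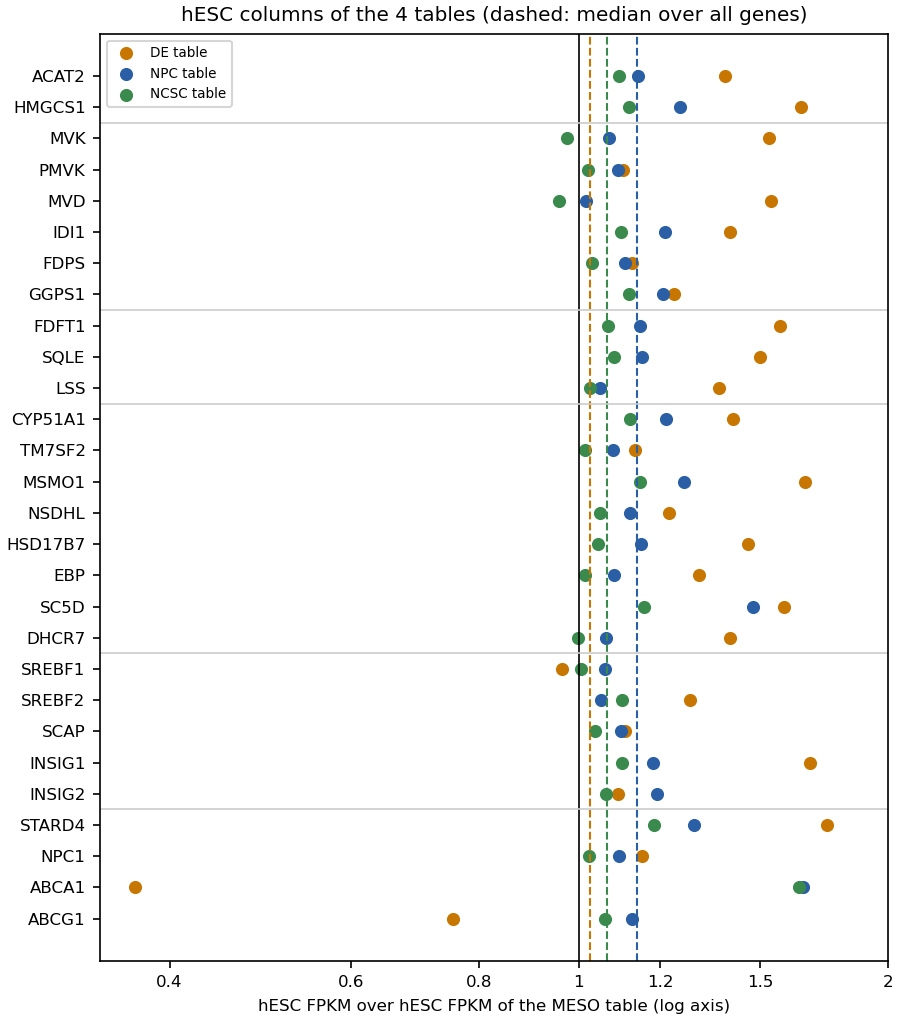
hESC level of the 28 genes in the DE, NPC and NCSC tables over that in the MESO table, on a log axis; dashed lines give the median ratio over all genes with at least 10 FPKM. Most points of the DE table (orange) lie well right of their dashed line at 1.03, and those of SREBF1, ABCA1 and ABCG1 lie left of it.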

How the data were processed

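Cufflinks 2.2.1, featureCounts, Subread 1.5.2, TopHat2 2.0.13 and the build hg19 are named in the submitters' processing notes, which do not say what each was used for. The authors deposited 1 table per derivative with FPKM of hESC and of the derivative, a signed test statistic (a score), a p-value and a q-value, per the file headers. Replicates had been combined, so no test across libraries was possible, and the tests quoted are the authors'. Values per library and depth were not used here.

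Gene cells were split at commas, rows off chromosomes 1 to 22 and X left out, and of several rows of a symbol the one of highest mean FPKM was kept. SC5D was listed under an older symbol. Where the p-value was 1 and the statistic 0 or missing, the locus counted as not tested. By the rule for named genes, levels in every column are given for members that passed in at least 1 table and the most abundant of each stage, the other members are described by ranges, and the lists are named by up to 3 genes per other list and table with the largest changes among those that passed. The levels of ACAT2, PMVK and GGPS1, and the single values given for IDI1, LSS, CYP51A1, HSD17B7, SREBF1 and SCAP, fall outside that rule and were chosen after their values were seen, as was DHDDS in NPC and NR1H2 and ABCA2 in NPC. The members and lists were chosen with earlier results of these data known.

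Alternatives were other q thresholds, pseudocounts of 0.1 and 5, no centring, quantile normalization, FPKM minimums, merged loci left out, hESC values taken from the other tables, and p-values recomputed as normal from the statistic with Benjamini-Hochberg adjustment over the table. Centring before the normal p-value and summing the rows of a symbol were added after seeing the data. Scripts used Python 3.11.15, pandas 2.3.3, NumPy 2.4.6 and SciPy 1.17.1. The functions for Benjamini-Hochberg adjustment and quantile normalization were tested on simulated data, and the motif search on a made sequence. The other steps were not tested in this way.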

Additional observations from a re-analysis of the deposited data

Results flagged for a closer look

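Of the 28 genes, 6 passed in opposite directions in a pair of derivatives. The same count was not made over all loci. The difference between the centred log2 changes was 2.66 for MVD (MESO minus NPC), 2.22 for SC5D (MESO minus NPC), 2.32 for MSMO1 (NCSC minus NPC), 2.02 for DHCR7 (NCSC minus NPC), 2.01 for SQLE (NCSC minus NPC) and 1.74 for ABCG1 (NPC minus MESO). These differences were not tested: each table holds 1 value per cell type, and both sides of a pair are set against hESC, for which 2 libraries are listed.

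HMGCS1, HMG-CoA synthase, had 4 rows in the NCSC table, none of them tested by the authors. The row used here stood at 409 FPKM in NCSC, against 171 FPKM in hESC, and the second row, left out of the comparison with hESC, at 94.6 FPKM in NCSC, against 3.18 FPKM in hESC. With all 4 rows summed, the centred change of HMGCS1 in NCSC was 1.77 in place of 1.48.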

How the results depend on the processing

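No paired analysis was possible because the tables hold 1 value per cell type and none per library, and leaving out replicates in turn could not be run for the same reason. The median change of the 28 genes kept its sign in each derivative under every alternative run, from 0.35 to 0.77 in DE, 0.59 to 0.74 in MESO, -0.50 to -0.11 in NPC and 0.52 to 0.87 in NCSC. The counts of calls moved. In MESO, 1 gene rose (MVK) and 0 fell at a q threshold of 0.01, and with normal p-values 0 rose and 0 fell, also after centring. With normal p-values, 5.23% of all tested loci were higher and 2.70% lower in MESO. The fall of ABCG1 there was lost too (0 fell) with a minimum centred change of 1 or a minimum of 1 FPKM. In NPC, 5 fell at a q threshold of 0.01, 2 with a minimum centred change of 1, 4 with normal p-values and 1 after centring, while 1 rose (ABCA1) with normal p-values. In NCSC, 11 rose and 1 fell at a q threshold of 0.1, and 4 rose with normal p-values. In DE, 1 rose (ABCA1) with normal p-values, beside 1.10% of all tested loci higher and 0.130% lower. Shares of all loci at the other q thresholds and minimums were not computed. Of 24 calls, 15 were lost with normal p-values and 14 with normal p-values after centring, and the cause was not tested. Calls were lost over all loci too. In NPC, 3687 loci fell by the authors' q-value and 2263 with normal p-values. No call changed direction under the other scalings or pseudocounts run. FPKM without counts limits precision by an amount that could not be computed.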
